A study of Mus musculus with 8 samples.

Results

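The genes described here are 37 regulators and executioners of apoptosis: the BCL2 family, the caspases with their apoptosome partners, the inhibitors of apoptosis, the death receptors with their ligands and adaptors, and Trp53 with Mdm2. They were chosen by their Entrez gene IDs out of 24235 genes with such an ID on the array. No measured value was used to choose them, though earlier results of these data were known. All 37 had a row on the array. The study used primary follicular cells, mostly granulosa cells by their label, from the ovaries of 8-week-old Swiss females, each replicate a pool of 5 mice. Preantral follicles were dispersed and cultured, and RNA was taken on day 9. Cells were transfected with 12 pmol of a control siRNA pool or of a pool against Foxl2 and grown for 24 h before lysis, and vehicle or 100 nM 17β-estradiol (E2) was added to the medium 10 h before lysis. Each siRNA was combined with each treatment, which gave 4 groups of 2 arrays. Cells of all 4 groups also received a pDsRed plasmid with the siRNA, and from day 7 their medium was free of added hormone.

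Granulosa cells surround the oocyte, and most follicles are lost by atresia, in which these cells die by apoptosis. In the mitochondrial route, BAX and BAK1 open the outer membrane of the mitochondrion and are held in check by pro-survival proteins of the BCL2 family, which BH3-only proteins bind and block. Cytochrome c then joins APAF1 and caspase 9, and executioner caspases cut cell proteins. In the receptor route, ligands of the TNF family engage death receptors, and adaptors bring in caspase 8. FOXL2 is a forkhead transcription factor of granulosa cells, and E2 acts in them mainly through the estrogen receptor ESR2. The comparisons ask how transcripts of this machinery differed with the Foxl2 siRNA and with E2.

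Values are log2 scaled signals. Processed intensities were divided by the 75th percentile of their array, between 275 and 367 units, and put on a common scale on which that percentile is 8.32. A difference of 1 on this scale is a doubling. Of the 37 genes, 33 were well above background on all 8 arrays and 2 on some of them, Bcl2l11 on 4 and Tnfrsf1b on 2. Hrk, a BH3-only gene, and Fasl, the ligand of FAS, were well above background on no array, with signals of 1.30 to 2.86 and 1.39 to 2.46. Both fell under the filter at a median scaled signal of 10 units, so 35 members were among the 15637 genes tested. No probe was saturated. A gene was called where its Benjamini-Hochberg adjusted p over all genes tested, from limma, was below 0.05. The arrays of 1 group are labelled as biological replicates, and with 2 arrays per group, only 4 residual degrees of freedom stand behind each test.

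The signal of the targeted gene did not follow the labels. Foxl2 was 0.18 ± 0.10 (SE) higher over both treatments in the arrays labelled FOXL2 siRNA (adjusted p = 0.334). Its brighter probe gave a difference of 0.18 and its dimmer probe one of -0.97 (adjusted p = 0.329 and 0.0164 in the fit of probes). Follistatin (Fst), a known target that FOXL2 activates, had a difference of -2.02 (adjusted p = 0.000228), and Sox9, which FOXL2 represses, was 2.05 higher (adjusted p = 0.000304). The E2 labels were checked with Cbs, Hsd11b2, Angpt2 and Tacc1, taken as genes that E2 activates in these cells. Sox9 and Sox8 were taken as genes it represses. The study reported these directions from these same arrays, so the genes are not an independent list. In the arrays labelled control siRNA, the differences between E2 and vehicle were -2.11 for Cbs (adjusted p = 0.0143), -2.33 for Hsd11b2, -1.24 for Angpt2 and -1.02 for Tacc1, and 0.79 for Sox9 and 0.70 for Sox8 (adjusted p of 0.347 to 0.896 for these 5). In the arrays labelled FOXL2 siRNA, the same differences were 1.31, 1.18, 1.94 and 0.55, and -0.43 and -0.30, none of them called. All 6 genes thus went against the vehicle and E2 labels in control siRNA and with them in FOXL2 siRNA, and the difference between the effects was called for Cbs (3.41, adjusted p = 0.00372). Whether the labels of the control groups are exchanged was not tested. Groups are therefore named by their labels, and each value that separates the control arrays by treatment depends on those labels, while averages over both treatments do not. Of 13 markers of granulosa cells, 10 were well above background on all 8 arrays, while Fshr and Amh were on none. Fst, Hsd17b1 and Esr2 of that list were called lower and Inhbb higher over both treatments in the arrays labelled FOXL2 siRNA. Their part in the results below was not tested. Of the markers of theca cells, leukocytes, T and NK cells, endothelial cells, oocytes and fibroblasts, 0 were called in the comparisons. Markers under the filter were not tested and could not be called, so this count does not cover the whole lists. Among those not tested, Ptprc, Cd3g, Cdh5 and Zp3 were well above background on no array. On all 8 arrays, 2 of 5 theca markers, 4 of 7 leukocyte markers and 4 of 7 T and NK markers were well above background. So were 2 of 5 endothelial markers, 1 of 7 oocyte markers and 3 of 6 fibroblast markers. In RNA from whole cultures, fewer cells of a type and less RNA per cell cannot be told apart.

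Averaged over both treatments, which does not depend on the vehicle and E2 labels, Mcl1, Casp6 and Tnfrsf1a were lower and Bik and Birc2 were higher in the arrays labelled FOXL2 siRNA than in control siRNA. The decreases were to between 66.7 and 77.4% of the control level, and Bik rose 3.07-fold in the main fit. The size of the Bik rise depended on the processing. With vehicle, 4 members were called, and with E2 4 were called. Among the 9 pro-survival members, 1 was called higher and 1 lower over both treatments, and among the 24 pro-death members tested, 1 was called higher and 2 lower. The members thus did not move one way by role. The median difference was 0.10 for pro-survival members, 0.03 for pro-death members and 0.07 for all 35, against -0.00 for all genes tested. The 5 calls among 35 members over both treatments, 2 higher and 3 lower, stand against 12.6% of all genes called, 6.4% higher and 6.18% lower. The 4 with vehicle, 1 higher and 3 lower, stand against 6.57%, with 3.63% higher and 2.94% lower. The 4 with E2, 2 higher and 2 lower, stand against 4.39%, with 2.25% higher and 2.14% lower. Nothing particular to the list is read from these counts.

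Mcl1 encodes a short-lived pro-survival protein that binds BAK1 and BH3-only proteins. Its signal was 12.38 and 12.36 in control siRNA with vehicle, 12.61 and 12.53 in control siRNA with E2, 12.05 and 11.88 in FOXL2 siRNA with vehicle and 11.84 and 11.79 in FOXL2 siRNA with E2. All 4 arrays labelled FOXL2 siRNA lay below all 4 control arrays. The difference was -0.40 ± 0.09 (SE) with vehicle (adjusted p = 0.0381), -0.75 ± 0.09 with E2 (adjusted p = 0.00514) and -0.58 ± 0.06 over both (adjusted p = 0.00127), the last a level of 67.1% of control. Its brighter probe fell by 0.53 and its dimmer probe by 0.89 over both treatments, each called in the fit of probes (adjusted p = 0.00158 and 0.00235). The call with vehicle was lost when any 1 of the 8 arrays was left out, with adjusted p from 0.0588 to 0.205. With E2 it was lost without control siRNA with E2 replicate 1 alone (adjusted p = 0.054), and over both treatments it was lost in none of these fits.

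**Figure D1:**
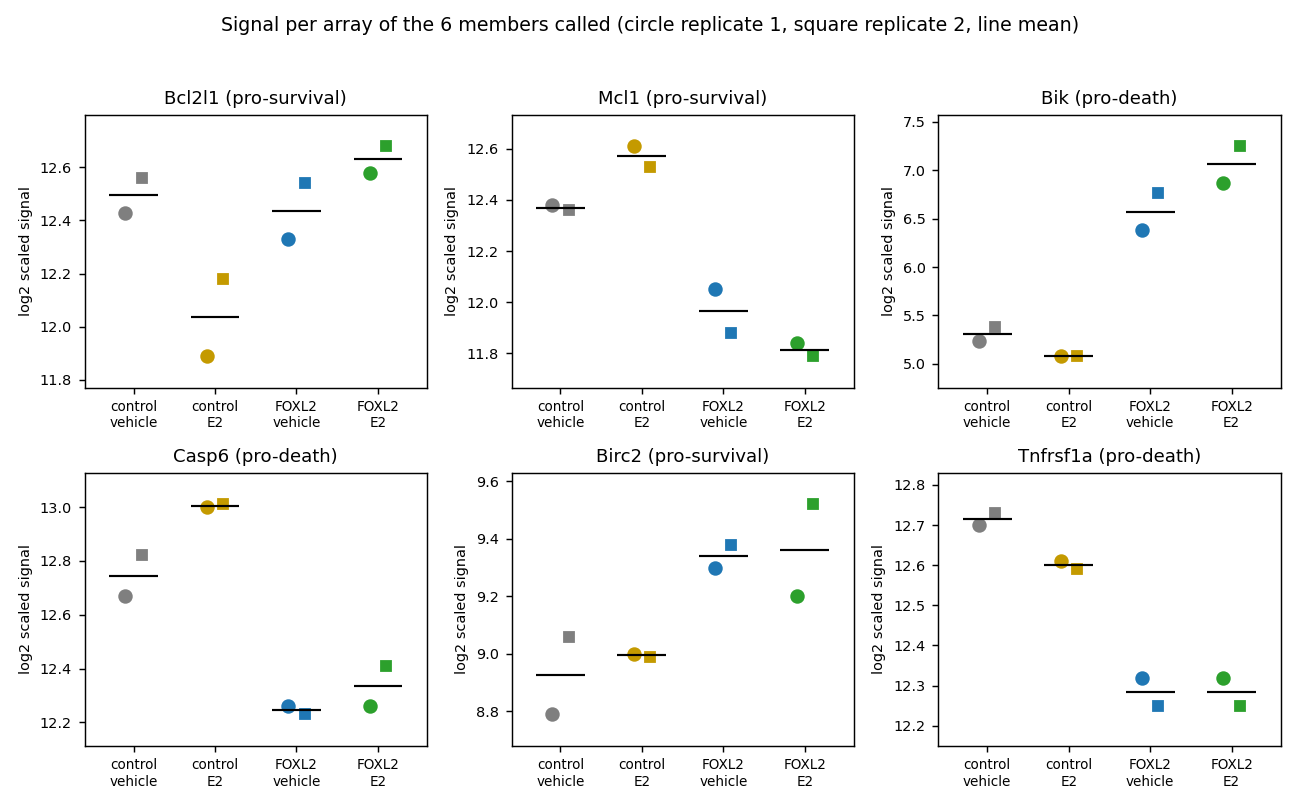
Log2 scaled signal (vertical axis, a separate range in each panel) of the 6 members called in any comparison, by group; circles are replicate 1, squares replicate 2 and lines the mean of 2 arrays. The arrays labelled FOXL2 siRNA lie apart from all control arrays for Mcl1, Bik, Casp6, Birc2 and Tnfrsf1a, and for Bcl2l1 the control arrays with E2, at 11.89 and 12.18, lie below the rest.

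Bcl2l1 encodes BCL-XL, the other pro-survival BCL2 protein with a called difference. Its signal was 12.43 and 12.56 in control siRNA with vehicle, 11.89 and 12.18 in control siRNA with E2, 12.33 and 12.54 in FOXL2 siRNA with vehicle and 12.58 and 12.68 in FOXL2 siRNA with E2. The control arrays with E2 were the lowest of the 8, and the vehicle groups overlapped. With E2 it was 0.60 ± 0.12 (SE) higher in FOXL2 siRNA than in control siRNA (adjusted p = 0.0397), while with vehicle the difference was -0.06 (adjusted p = 0.855, 95% interval -0.35 to 0.23). The call was lost when any 1 of the 8 arrays was left out, with adjusted p from 0.0515 to 0.219. This split by treatment rests on the control labels that the E2 check genes go against. Compared with the control group of the other treatment label, FOXL2 siRNA with vehicle differed by 0.40 and FOXL2 siRNA with E2 by 0.13. The difference between its E2 effects was 0.66 ± 0.18 and was not called (adjusted p = 0.469).

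The other pro-survival BCL2 genes were not called. Bcl2, the founding member, had signals of 8.13 to 8.82, with a difference of 0.10 over both treatments (adjusted p = 0.592). Bcl2l2, which encodes BCL-W, kept between 9.30 and 9.46 on all 8 arrays, with a 95% interval of -0.16 to 0.16 for the difference over both treatments. Against these stood the genes of the pore-forming effectors, none of them called. Bax, the effector with the brightest probes, read 13.79 and 13.80 in control siRNA with vehicle, 13.71 and 14.01 in control siRNA with E2, 13.83 and 14.02 in FOXL2 siRNA with vehicle and 13.66 and 13.98 in FOXL2 siRNA with E2. The FOXL2 siRNA arrays with vehicle lay above the control arrays with vehicle, and the other groups compared overlapped. Bak1 was 0.22 ± 0.07 higher over both treatments (adjusted p = 0.069). Bok, an effector that pro-survival proteins bind poorly, had a difference of 0.33 with vehicle and -0.18 with E2 (adjusted p = 0.131 and 0.477).

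Among the BH3-only genes, Bik had the largest difference of the 35 members over both treatments. Bik encodes a BH3-only protein that resides mainly at the endoplasmic reticulum. Its signal was 5.24 and 5.38 in control siRNA with vehicle, 5.08 and 5.08 in control siRNA with E2, 6.38 and 6.76 in FOXL2 siRNA with vehicle and 6.87 and 7.25 in FOXL2 siRNA with E2. The lowest array labelled FOXL2 siRNA, at 6.38, lay above the highest control array, at 5.38. The difference was 1.26 ± 0.21 (SE) with vehicle (adjusted p = 0.0149), a 2.39-fold rise, and 1.98 ± 0.21 with E2 (adjusted p = 0.0041), a 3.94-fold rise. Over both treatments it was 1.62 ± 0.15 (adjusted p = 0.000739). The difference between the E2 effects, 0.72 ± 0.30, was not called (adjusted p = 0.989). With vehicle the call was lost without control siRNA with vehicle replicate 1 (adjusted p = 0.06), without its replicate 2 (0.0591) and without FOXL2 siRNA with vehicle replicate 2 (0.106); with E2 and over both treatments, leaving out any 1 of the 8 arrays did not end it. Bik has 1 probe on the array, with a dim signal, and the size of its difference depended on the processing. Over the other settings that keep all arrays, it was 0.64 to 1.31 with vehicle and 1.15 to 1.99 with E2. Over both treatments it was 0.89 to 1.62 in those settings.

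The remaining BH3-only genes were not called. Bad, whose protein binds BCL2 and BCL-XL when it is not phosphorylated and which has the brightest probes of this group, read 12.62 and 12.52 in control siRNA with vehicle, 12.41 and 12.53 with E2, 12.34 and 12.24 in FOXL2 siRNA with vehicle and 12.33 and 12.25 with E2. All 4 arrays labelled FOXL2 siRNA were below all 4 control arrays, and the difference over both treatments was -0.23 ± 0.06 (adjusted p = 0.0512). Bid, which caspase 8 cuts, ranged from 10.34 to 10.81, and Bmf from 6.09 to 7.26. The p53 targets Bbc3, which encodes PUMA, and Pmaip1, which encodes NOXA, had differences of 0.20 and -0.14 with vehicle. Bcl2l11, which encodes BIM, was well above background on both arrays of control siRNA with vehicle and on neither of FOXL2 siRNA with vehicle. A bound set by the lowest signal among all probes well above background on the dimmer arrays came to 1.26-fold higher in the former. On FOXL2 siRNA with vehicle replicate 2 that lowest signal was 3.63. A Bcl2l11 probe read 4.19 there without being well above background, so no minimum fold is read from the bound. Bcl2l11 was not called (adjusted p = 0.361).

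**Figure D2:**
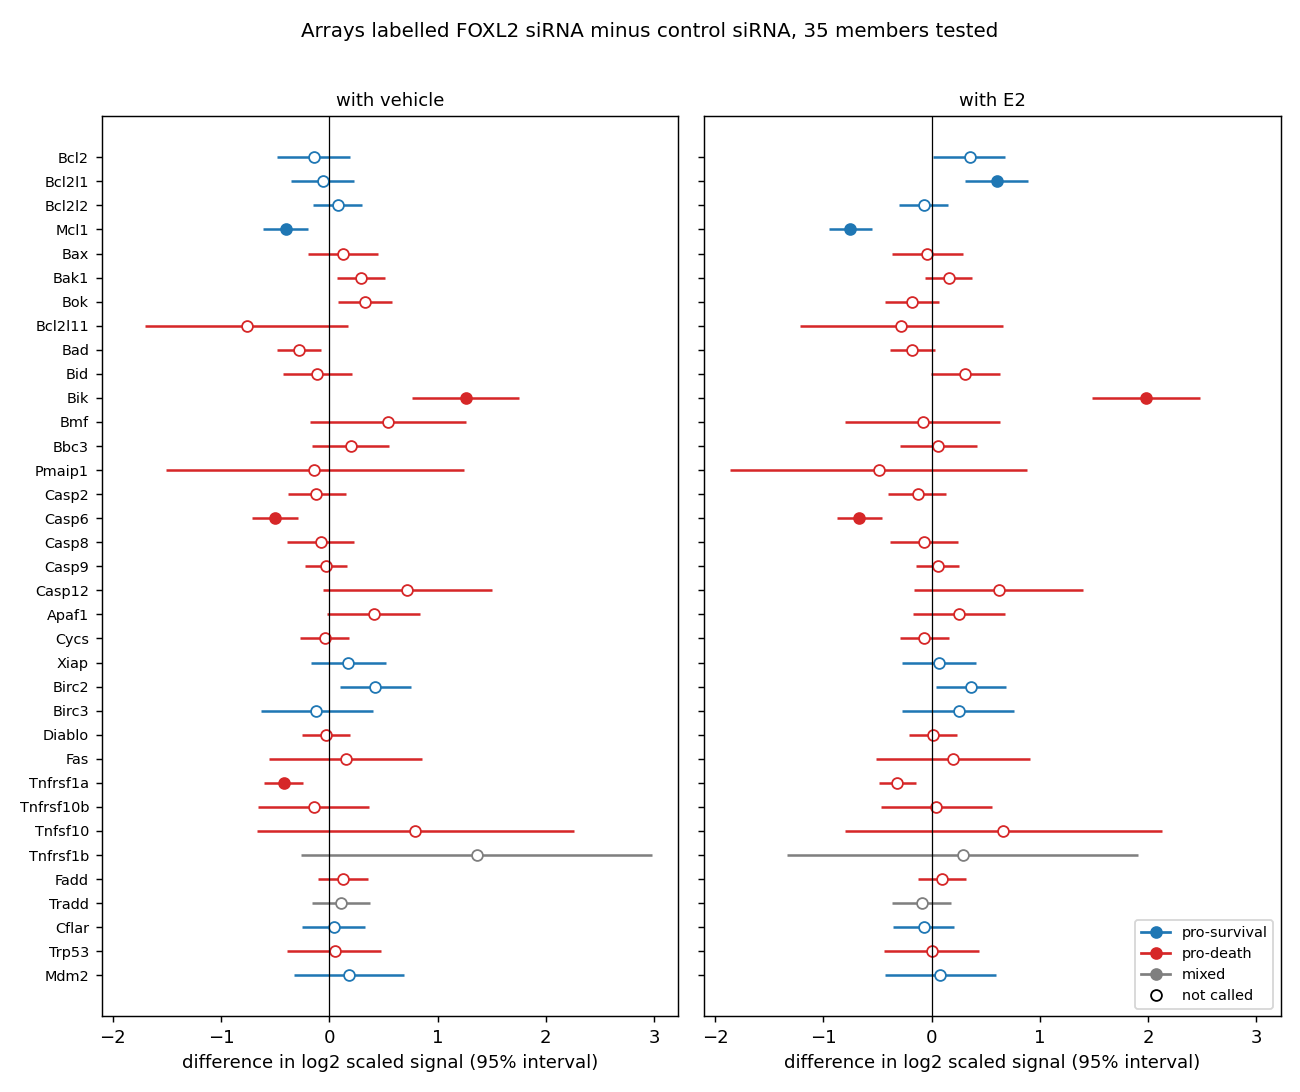
Difference in log2 scaled signal between arrays labelled FOXL2 siRNA and control siRNA for the 35 members tested, with vehicle (left) and with E2 (right); points are differences between means of 2 arrays, lines their 95% intervals, colours the role, and filled points those called. Bik stands farthest right among the filled points in both panels, at 1.26 and 1.98, and most other members lie near 0 with pro-survival and pro-death members on both sides.

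Casp6 was the member of the caspase and apoptosome group that changed. It encodes an executioner caspase that cuts nuclear lamins. Its signal was 12.67 and 12.82 in control siRNA with vehicle, 13.00 and 13.01 in control siRNA with E2, 12.26 and 12.23 in FOXL2 siRNA with vehicle and 12.26 and 12.41 in FOXL2 siRNA with E2. The control and FOXL2 siRNA arrays did not overlap. The difference was -0.50 ± 0.09 (SE) with vehicle (adjusted p = 0.0179), -0.67 ± 0.09 with E2 (adjusted p = 0.00795) and -0.58 ± 0.06 over both (adjusted p = 0.00126). The call with vehicle was lost without FOXL2 siRNA with vehicle replicate 1 (adjusted p = 0.0795) or 2 (0.109) and without control siRNA with vehicle replicate 2 (0.103). The call with E2 was lost without control siRNA with E2 replicate 1 (0.0679) or 2 (0.0595), and that over both treatments in none of these fits.

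The other genes of this group were not called. Casp2, Casp8 and Casp9, the initiator of the apoptosome, had signals of 11.68 to 12.09, 10.60 to 10.92 and 10.97 to 11.09. Cycs, which encodes cytochrome c and gave the brightest signal of the group, read 12.76 and 12.79 in control siRNA with vehicle, 12.68 and 12.88 with E2, 12.77 and 12.69 in FOXL2 siRNA with vehicle and 12.63 and 12.79 with E2. The groups overlapped. Apaf1 was 0.33 ± 0.13 higher over both treatments and Casp12, a caspase linked to the endoplasmic reticulum, 0.67 ± 0.24 higher (adjusted p = 0.148 and 0.115); neither was called.

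Birc2 encodes cIAP1, a ubiquitin ligase of the TNF receptor complex. Its signal was 8.79 and 9.06 in control siRNA with vehicle, 9.00 and 8.99 in control siRNA with E2, 9.30 and 9.38 in FOXL2 siRNA with vehicle and 9.20 and 9.52 in FOXL2 siRNA with E2. All arrays labelled FOXL2 siRNA were above all control arrays. The difference over both treatments was 0.39 ± 0.10 (SE, adjusted p = 0.0403), a 1.31-fold rise, and with vehicle alone and E2 alone it was not called (adjusted p = 0.14 and 0.242). The call was lost without control siRNA with vehicle replicate 1 (adjusted p = 0.0899), control siRNA with E2 replicate 1 (0.109) or 2 (0.118), FOXL2 siRNA with vehicle replicate 1 (0.0846) or 2 (0.122) and FOXL2 siRNA with E2 replicate 2 (0.119).

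Xiap, which blocks caspases directly and gave the brightest signal of the inhibitors, read 11.43 and 11.04 in control siRNA with vehicle, 11.30 and 11.15 with E2, 11.55 and 11.27 in FOXL2 siRNA with vehicle and 11.28 and 11.31 with E2, and its groups overlapped. Birc3, which encodes cIAP2, lay between 5.39 and 6.03. Diablo, whose protein SMAC displaces inhibitors from caspases, read 9.87 and 10.04 in control siRNA with vehicle, 9.98 and 10.00 with E2, 9.90 and 9.95 in FOXL2 siRNA with vehicle and 9.98 and 10.02 with E2. It spanned only 9.87 to 10.04 on the 8 arrays.

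Tnfrsf1a encodes the TNF receptor with a death domain. Its gene signal was 12.70 and 12.73 in control siRNA with vehicle, 12.61 and 12.59 in control siRNA with E2, 12.32 and 12.25 in FOXL2 siRNA with vehicle and 12.32 and 12.25 in FOXL2 siRNA with E2. The difference was -0.42 ± 0.08 (SE) with vehicle (adjusted p = 0.0189), -0.32 ± 0.08 with E2 (adjusted p = 0.0667) and -0.37 ± 0.05 over both (adjusted p = 0.00444). Its 2 probes, listed for the same transcript, disagreed. Probe A_55_P2051099 was 0.69 lower over both treatments (a difference of -0.69, adjusted p = 0.000593 in the fit of probes), while probe A_52_P192426 had a difference of 0.02 (adjusted p = 0.904). The change of the gene value thus rests on 1 probe. The call with vehicle was lost without control siRNA with vehicle replicate 1 (adjusted p = 0.064) or 2 (0.101) and without FOXL2 siRNA with vehicle replicate 1 (0.0669) or 2 (0.122).

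**Figure D3:**
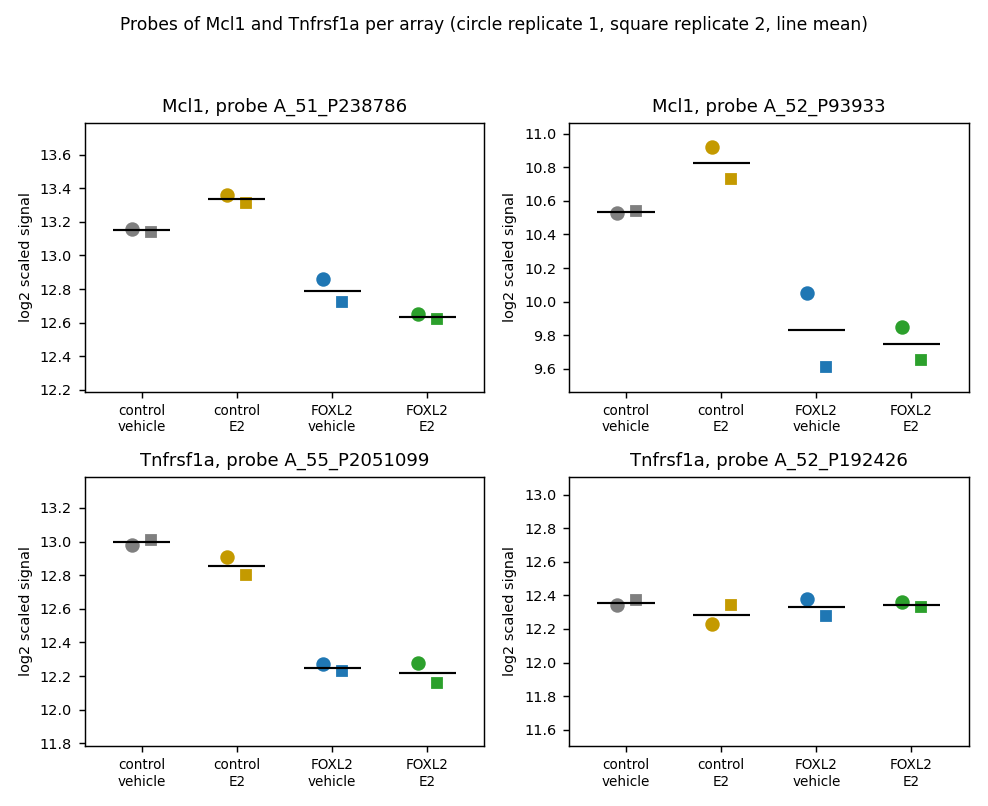
Log2 scaled signal (vertical axis, the same span in each panel) of each probe of Mcl1 and Tnfrsf1a by group; circles are replicate 1, squares replicate 2 and lines the mean of 2 arrays. Both probes of Mcl1 lie lower under the FOXL2 siRNA label, and for Tnfrsf1a probe A_55_P2051099 is lower there while probe A_52_P192426 is level, between 12.23 and 12.38.

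Tnfrsf1b, the TNF receptor without a death domain, was well above background on 1 array of FOXL2 siRNA with vehicle and 1 of FOXL2 siRNA with E2. Its signal was 3.99 and 2.32 in control siRNA with vehicle, 3.57 and 3.36 in control siRNA with E2, 5.14 and 3.88 in FOXL2 siRNA with vehicle and 4.40 and 3.11 in FOXL2 siRNA with E2. Its groups overlapped. The bound used for Bcl2l11 came to 1.72-fold with vehicle and 1.15-fold with E2, higher in FOXL2 siRNA than in control siRNA. It averages 2 arrays of which only 1 was well above background, so no minimum fold is read from it. Neither difference was called (adjusted p = 0.345 and 0.894). Fas ranged from 6.48 to 7.38 and Tnfrsf10b, the mouse receptor of TRAIL, from 11.23 to 11.87. Tnfsf10, which encodes TRAIL, ranged from 5.20 to 7.34. Among the adaptors, Tradd gave the brightest signal, with 12.16 and 11.92 in control siRNA with vehicle, 12.05 and 12.04 with E2, 12.27 and 12.02 in FOXL2 siRNA with vehicle and 11.98 and 11.92 with E2. The arrays of FOXL2 siRNA with E2 lay below those of control siRNA with E2 and of FOXL2 siRNA with vehicle, and Tradd was not called. Neither Fadd, at 9.28 to 9.49, nor Cflar, which encodes the caspase 8 inhibitor FLIP, at 8.23 to 8.57, was called.

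Mdm2 encodes the ubiquitin ligase of p53. It read 13.89 and 14.21 in control siRNA with vehicle, 13.78 and 14.23 with E2, 14.09 and 14.37 in FOXL2 siRNA with vehicle and 13.82 and 14.35 with E2. Replicate 2 was the higher array in each group, and the groups overlapped. Trp53 lay between 8.51 and 9.06, with a difference of 0.02 over both treatments. Over all 35 members, the 4 arrays labelled FOXL2 siRNA and the 4 control arrays did not overlap for 6 members (17.1%), against 20.9% of all genes tested.

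E2 against vehicle gave 0 calls among the 35 members in control siRNA and 0 in FOXL2 siRNA by limma, where 0.0192 and 0.0128% of all genes were called. At an unadjusted p below 0.05 there were 3 members in control siRNA, Bcl2, Bcl2l1 and Casp6, among 716 genes. In FOXL2 siRNA there were 2, Bak1 and Bok, among 478 genes. In control siRNA, Bcl2 read 8.82 and 8.60 with vehicle and 8.13 and 8.35 with E2, a difference of -0.47 ± 0.14 (adjusted p = 0.832), and Bcl2l1 had one of -0.46 ± 0.12 (adjusted p = 0.712). For both pro-survival genes the arrays labelled E2 were lower without overlap, and neither passed the test. In these same arrays the E2 check genes went against the labels, so the direction of both differences depends on labels that are in doubt. In FOXL2 siRNA, Bok had a difference of -0.33 ± 0.11 and Bak1 one of -0.24 ± 0.09 (adjusted p = 1.0 for each). No member met the rule of the study's methods for E2 targets, a difference between group means of at least 1 that also exceeds 2 times the sum of the standard deviations of both groups. With the processing used here, 71 genes met it in control siRNA and 34 in FOXL2 siRNA. The study reported fewer E2 targets than this with each siRNA. The largest member differences were -0.47 for Bcl2 and -0.76 for Tnfrsf1b. Averaged over both siRNAs, 0 members and 0 genes were called, with 2 members and 2.3% of all genes at an unadjusted p below 0.05. The E2 check genes had opposite signs in the siRNAs, and this average was -0.40 for Cbs, -0.57 for Hsd11b2 and 0.35 for Angpt2. Because it depends on the control labels, no absence of an E2 effect is read from it.

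**Figure D4:**
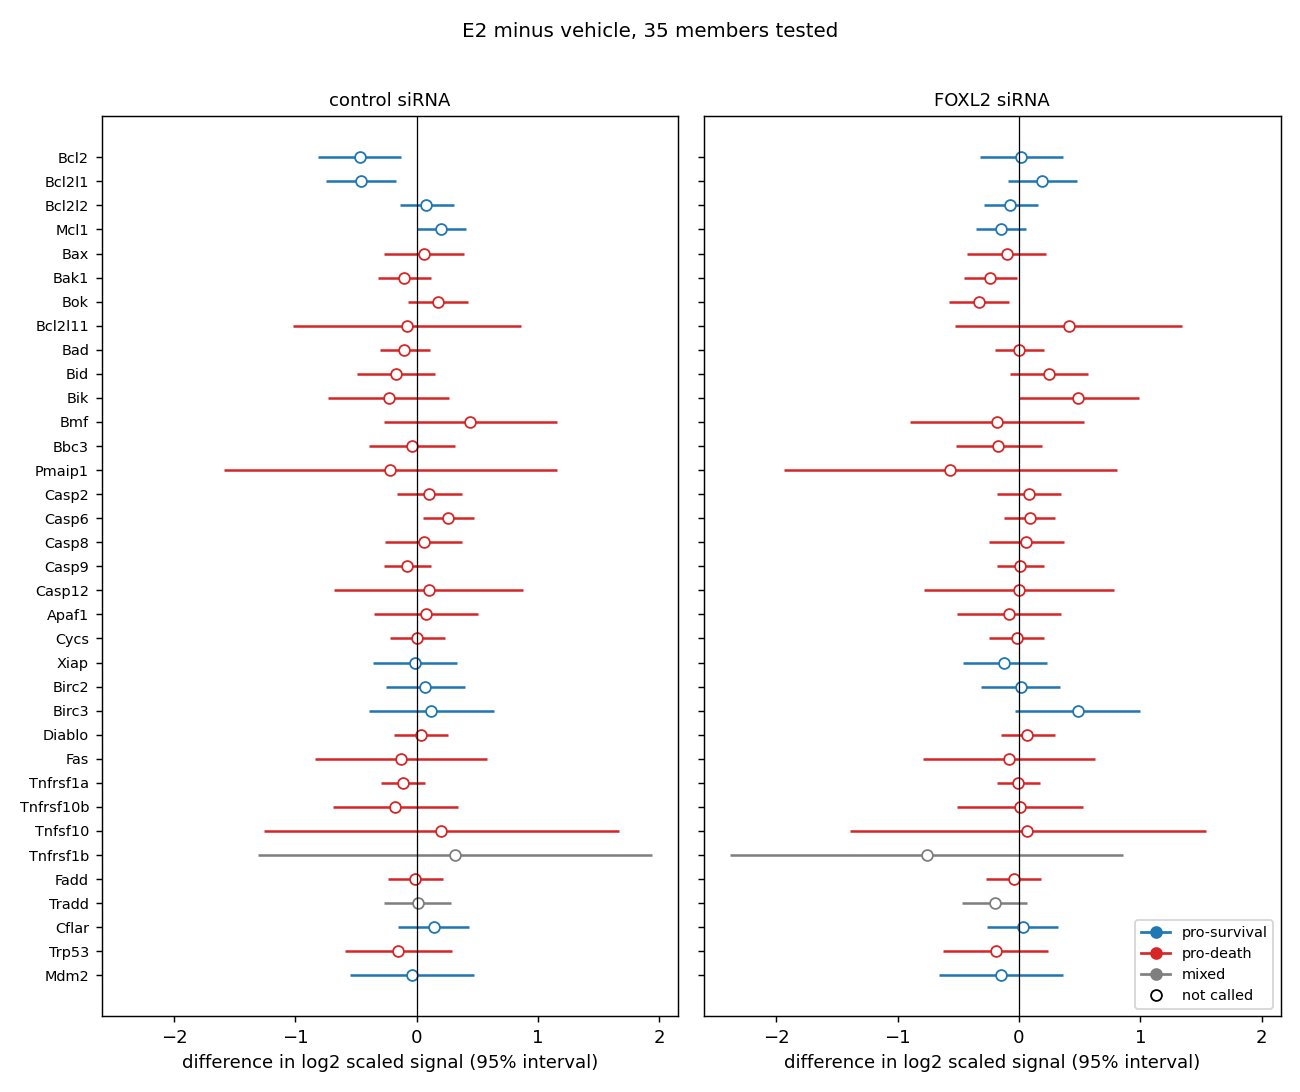
Difference in log2 scaled signal between E2 and vehicle for the 35 members tested, in control siRNA (left) and FOXL2 siRNA (right); points are differences between means of 2 arrays, lines their 95% intervals and colours the role. All points are open, as none was called, and Bcl2 and Bcl2l1 lie at -0.47 and -0.46 on the left.

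The E2 effect differed between the siRNAs for 0 members by limma, against 0.243% of all genes, and for 5 members at an unadjusted p below 0.05 among 765 genes. These were Bcl2, Bcl2l1 and Bik, with positive differences of the effects (0.49, 0.66 and 0.72), and Bok and Mcl1, with negative ones (-0.51 and -0.35). None had an adjusted p below 0.469. The difference of the effects was 3.41 for Cbs, 3.52 for Hsd11b2, 3.18 for Angpt2 and -1.22 for Sox9. With the sign of the control contrast turned, the values of the members would be -0.45 for Bcl2, -0.27 for Bcl2l1, 0.26 for Bik, -0.16 for Bok and 0.05 for Mcl1. Against the control group of the other treatment label, FOXL2 siRNA with vehicle and with E2 differed by -0.60 and -0.55 for Mcl1, by -0.76 and -0.41 for Casp6, by -0.31 and -0.43 for Tnfrsf1a, by 1.49 and 1.75 for Bik and by 0.35 and 0.44 for Birc2, with the direction of the averages over both treatments in each case. For these members the arrays labelled FOXL2 siRNA and the control arrays do not overlap, so any such pairing of groups must give that direction. The comparisons with vehicle, with E2 and over both treatments share arrays, so their values for 1 member are not independent of each other.

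The arrays of a group differed from each other in a way that recurred in all 4 groups for several members. Pmaip1 had the widest such difference upwards, with replicate 2 above replicate 1 by 1.09 in control siRNA with vehicle, 0.99 in control siRNA with E2, 1.17 in FOXL2 siRNA with vehicle and 1.09 in FOXL2 siRNA with E2. The corresponding range was 0.27 to 0.89 for Fas, 0.33 to 0.52 for Tnfrsf10b, 0.28 to 0.53 for Mdm2, 0.11 to 0.45 for Apaf1, 0.12 to 0.35 for Bbc3 and 0.02 to 0.32 for Bax. These 7 are known p53 targets, a grouping made after their values were seen. Trp53 itself was higher in replicate 2 by 0.17 to 0.42. In the other direction, replicate 2 was below replicate 1 for Tnfsf10 by 0.56 to 1.49 (differences of -1.49 to -0.56) and for Casp12 by 0.28 to 0.70 (differences of -0.70 to -0.28). Replicate 2 was above replicate 1 in all 4 groups for 14 of 35 members (40.0%) and for 18.9% of all genes tested. This spread within groups enters the error of each of these members, such as the 95% interval of Pmaip1 with vehicle in the plot of the differences by member.

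**Figure D5:**
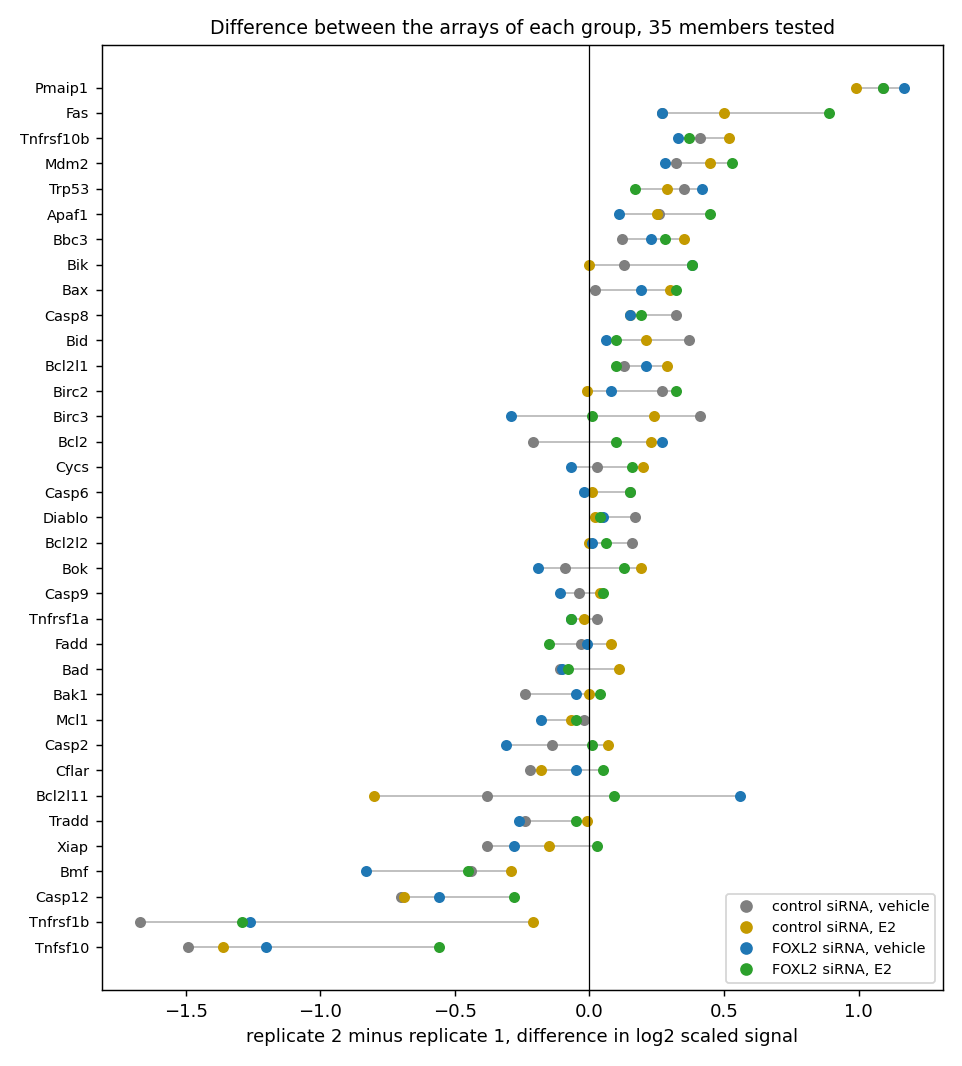
Replicate 2 minus replicate 1 in log2 scaled signal (horizontal axis) for the 35 members tested, ordered by the mean; each point is 1 group, coloured as in the key, and the grey line spans the 4 groups. Pmaip1, Fas, Tnfrsf10b, Mdm2 and Trp53 have all 4 groups above 0, and Tnfsf10, Tnfrsf1b, Casp12 and Bmf have all 4 below.

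Promoter windows of 250 bases before the annotated start were matched by symbol for 33 of the 37 members, giving 44 windows, from RefSeq on GRCm38.p6. Each was searched on both strands for the forkhead motif GTAAACA, which contains the shorter core TAAACA, for the full estrogen response element and its single site AGGTCA, for the cAMP response element TGACGTCA and for the AP-1 motif TGANTCA. The forkhead motif was found in 3 member windows, 1 each of Bbc3, Bcl2l11 and Mdm2 (6.82% of member windows, against 3.17% of 32851 windows of all genes). The core was in the same 3 windows (6.82% against 12.0%). None of these 3 genes was called in any comparison. The full estrogen response element was in 0 member windows and in 0.0639% of all windows, while the single site was in windows of Bcl2l1, Bcl2l2 and Bmf (6.82% against 14.0%). The cAMP response element was in windows of Birc2 and Cycs (4.55% against 1.55%), and the AP-1 motif in 1 of Fas (2.27% against 6.75%). The windows of Mcl1, Casp6 and Tnfrsf1a, called lower, held none of the motifs searched. Bik, the member with the largest called difference, had no window, and neither had Pmaip1, Tnfrsf10b and Tradd. Sequence outside the windows, introns included, was not searched, so nothing is read from the absence of a motif. The windows with the forkhead motif are shown with those of Birc2, Mcl1 and Casp6, all called, written 5′ to 3′ on the strand of the gene with the motif found, on either strand, in capitals.
Bcl2l11 (chr2:128125788-128126037, plus strand): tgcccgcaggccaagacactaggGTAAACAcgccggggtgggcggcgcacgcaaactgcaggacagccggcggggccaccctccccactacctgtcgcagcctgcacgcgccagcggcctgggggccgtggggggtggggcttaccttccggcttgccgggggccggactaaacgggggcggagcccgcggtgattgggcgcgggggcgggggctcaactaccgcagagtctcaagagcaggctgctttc
Mdm2 (chr10:117710759-117711008, minus strand): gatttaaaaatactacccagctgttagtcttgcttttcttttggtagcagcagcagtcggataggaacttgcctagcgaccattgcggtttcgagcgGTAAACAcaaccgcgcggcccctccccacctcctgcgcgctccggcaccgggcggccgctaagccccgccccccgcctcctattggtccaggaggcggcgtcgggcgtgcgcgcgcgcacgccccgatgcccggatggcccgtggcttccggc
Bbc3 (chr7:16310011-16310260, plus strand): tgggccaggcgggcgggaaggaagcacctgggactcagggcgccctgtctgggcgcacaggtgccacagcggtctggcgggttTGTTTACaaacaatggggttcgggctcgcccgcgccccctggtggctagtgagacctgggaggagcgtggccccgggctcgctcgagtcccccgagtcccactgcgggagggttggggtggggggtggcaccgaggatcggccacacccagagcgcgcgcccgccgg
Birc2 (chr9:7837058-7837307, minus strand): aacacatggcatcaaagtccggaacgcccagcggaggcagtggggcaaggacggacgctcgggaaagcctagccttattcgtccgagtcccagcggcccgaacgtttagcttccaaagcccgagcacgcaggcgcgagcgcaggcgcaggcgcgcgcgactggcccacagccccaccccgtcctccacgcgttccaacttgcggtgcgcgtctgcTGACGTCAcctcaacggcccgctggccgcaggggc
Mcl1 (chr3:95658471-95658720, plus strand): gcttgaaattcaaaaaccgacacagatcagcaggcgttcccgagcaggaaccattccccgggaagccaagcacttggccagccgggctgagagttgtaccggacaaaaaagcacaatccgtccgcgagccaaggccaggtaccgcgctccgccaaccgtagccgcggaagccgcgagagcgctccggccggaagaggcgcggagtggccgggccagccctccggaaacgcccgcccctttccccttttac
Casp6 (chr3:129901165-129901414, plus strand): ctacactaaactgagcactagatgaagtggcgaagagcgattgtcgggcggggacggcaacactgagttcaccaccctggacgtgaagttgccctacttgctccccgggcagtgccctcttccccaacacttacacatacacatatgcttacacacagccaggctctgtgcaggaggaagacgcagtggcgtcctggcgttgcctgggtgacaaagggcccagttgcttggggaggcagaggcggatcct
The first bases of the motifs lie 227 bases before the start for Bcl2l11, 153 for Mdm2, 167 for Bbc3 and 35 for Birc2. In Bbc3 the motif is on the opposite strand, so the capitals spell its reverse complement.

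Beyond the members, 115 other genes of these pathways were listed, of which 100 were tested. Over both treatments, the arrays labelled FOXL2 siRNA had 10 of them called higher and 9 lower. With vehicle 8 were higher and 4 lower. With E2 only Gadd45b was higher, by 0.67, and only Traf3, an adaptor of TNF receptors, lower, by 0.80 (a difference of -0.80). Of all genes tested, 6.4% were called higher and 6.18% lower over both treatments. The shares were 3.63% and 2.94% with vehicle and 2.25% and 2.14% with E2. The lists were made with earlier results of these data known, and nothing particular to a list is read from these counts. Among 29 other genes of the p53 pathway, 7 were called higher and 0 lower over both treatments, where 6.4% of all genes tested were called higher. The stress genes Gadd45g and Gadd45b were 1.42 ± 0.20 and 0.89 ± 0.09 (SE) higher (adjusted p = 0.00379 and 0.00111), and Cdkn2a, whose ARF product binds MDM2, 0.80 ± 0.17 higher (adjusted p = 0.0193). Of 21 genes of the death receptor pathway, 1 was called higher and 4 lower, among them Tnfaip3, which restrains TNF signalling, with a difference of -0.97 ± 0.18, and Traf1, with one of -0.80 ± 0.17 (adjusted p = 0.0127 and 0.0196). Foxo1, a forkhead factor that activates BH3-only genes, had a difference of -0.83 ± 0.15 (adjusted p = 0.012). Of 16 other caspases and execution genes, 1 was called higher and 3 lower. Of 15 other BCL2-related genes and 3 other inhibitors of apoptosis, none was called by limma (5 and 0 at an unadjusted p below 0.05). That unadjusted threshold was met by 26.8% of all genes tested over both treatments.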

How the data were processed

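RNA (50 ng per sample), amplified with Cy3 label, was measured on 1-colour Agilent arrays designed on mm9, 1 array per sample. The deposited scanner files hold intensity values made by the authors with Feature Extraction 11.5.1.1: a processed intensity after background subtraction, and mean and background intensities. A deposited table of log2 values, made by the authors by 75th percentile scaling and averaging over probes, equalled the log2 values computed here at 98.8 to 99.0% of entries per array, within 0.001 and up to 1 constant per array. It served as an alternative.

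Here, control spots (3671 of 62976) and 39 flagged probes were left out, leaving 55642 probes. Processed intensities were scaled to the 75th percentile, probes sharing an Entrez ID averaged on the linear scale, and genes with a median of at least 10 units kept (15637 of 24235). RefSeq named 22352 genes. The 4 groups, taken from sample titles, were fitted together with limma 3.58.1 (R 4.3.3; lmFit, contrasts, eBayes with an intensity trend), two-sided, with Benjamini-Hochberg adjustment over all genes and a threshold of 0.05. The script was tested on simulated data. Per array, 51.4 to 55.6% of probes exceeded background by the software's test; the number of arrays limits the precision. Arrays hold no read depth.

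Array-by-array values are given for members called in any comparison, the brightest member of each role group and members whose difference reached 1 between 2 groups. Of other pathway genes, lists were counted and the called ones with the largest differences named, at most 6 per comparison. Members and lists were chosen with earlier results of these data known, though no measured value was used to choose the members. Counts over them, set against all genes, are therefore not an independent test. Alternatives were other background corrections, normalizations, filters and probe summaries, the replicate number as a block, and leaving out each array in turn.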

Additional observations from a re-analysis of the deposited data

How the results depend on the processing

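Over all settings tried, no called difference of a member changed its direction. The count of members called with vehicle, 4, was 1 without an intensity trend and 0 when the groups compared were fitted alone, and it was 0 to 3 when 1 array was left out. With E2, 4 members became 1 to 3 when 1 array was left out, and over both treatments 5 became 4 to 5. The cause was not tested. With 1 array left out, the counts of members for E2 in each siRNA and for the difference of the E2 effects stayed at 0. Same-numbered arrays deviated together, with correlations of 0.33 to 0.45 in 6 of 6 pairs of groups, but the labels do not say that a number marks a shared pool of mice, and each comparison holds only 2 pairs. With the replicate number as a block, 13 members were called with vehicle, 8 with E2 and 11 over both treatments. In that fit 1 member was called for E2 in control siRNA, Bcl2l1 (difference -0.46, adjusted p = 0.0187), and 1 for the difference of the E2 effects, Bcl2l1 again (0.66, adjusted p = 0.0106), and 0 for E2 in FOXL2 siRNA. Over all genes, the block gave 2934 calls with vehicle, 2329 with E2 and 4325 over both treatments, against 1027, 686 and 1966. Leaving out 1 array gave 309 to 917, 131 to 629 and 1175 to 1878. For E2 in control siRNA, 3 genes became 1 to 182 over the settings that keep all arrays, for E2 in FOXL2 siRNA 2 became 0 to 96, and for the difference of the E2 effects 38 became 9 to 332; with 1 array left out these were 0 to 5, 0 to 4 and 4 to 10. For E2 over both siRNAs, 0 genes became 0 to 8. Bcl2l1 with E2 lost its call with normexp background (adjusted p = 0.0716), no filter (0.0686), no intensity trend (0.103), only the groups compared (0.075) and the log2 mean of probes (0.0732). Tnfrsf1a with E2 was called with the brightest probe (adjusted p = 0.00761) and with the block (0.0151).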

Other observations

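The higher signal of replicate 2 that recurred among p53 targets of the member list was also seen in the list of other p53 pathway genes. Replicate 2 was above replicate 1 in all 4 groups for 15 of its 29 genes (51.7%) and below in all 4 for 1, against 18.9% of all genes tested above. That list was made with earlier results of these data known. The median over that list of the mean difference was 0.24, and over the 7 p53 targets among the members 0.40, a grouping made after their values were seen, against 0.00 over all genes. What set the arrays of a number apart was not tested.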
